A study of Mus musculus with 4 samples.

Results

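The simple epithelial keratins and the adhesion gene Epcam were examined as a set of 7 genes, chosen by name from the table of 51098 genes: the type II keratin genes Krt7 and Krt8, the type I keratin genes Krt18, Krt19, Krt20 and Krt23, and Epcam. The samples were stomachs of E15.5 mice (E for embryonic day), profiled by RNA sequencing after removal of ribosomal RNA. The group Fgf9_null was homozygous for an allele of the secreted growth factor gene Fgf9 that carries lacZ (genotype Fgf9LacZ/LacZ, treatment field Fgf9KO). The group Fgf9_het carried 1 copy of the same allele (genotype Fgf9LacZ/+, treatment field control), so every sample carried lacZ and no stomach without the allele was compared, although the titles of the second group read WT. Each group had 2 samples, numbered 2 and 3. Whether a sample was 1 embryo or a pool is not stated in the sources used here.

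Keratins are intermediate filament proteins that assemble only as pairs of a type II (basic) and a type I (acidic) chain. Simple, 1-layered epithelia such as the glandular stomach use KRT8 and KRT18, usually with KRT19, while stratified epithelia such as the rodent forestomach replace them with pairs led by KRT5 in the basal layer. EPCAM is a cell surface glycoprotein of simple epithelia that associates with claudin 7. Mesothelium, which covers the stomach, is also known to carry simple keratins. The lists of partner genes and markers, and the 7 genes themselves, were chosen with earlier results of these data known.

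The columns of estimated counts summed to 19537211 and 22713416 under the Fgf9_null label and to 19269851 and 22425865 under the Fgf9_het label. Fgf9 itself had 133 and 131 counts in the Fgf9_null columns and again 133 and 131 counts in the Fgf9_het columns, so it does not tell the labels apart. The lacZ allele may keep transcribed parts of the gene, which was not tested. Columns with the same number matched gene by gene: 60.8% of 21487 genes had equal counts (within 0.001) in the number 2 columns and 59.1% of 21788 genes in the number 3 columns. After scaling by the median gene ratio, 0.0233% and 0.0459% of genes differed between same-numbered columns by a chi-square (1 degree of freedom) over 1, against 50.4% between columns of different number; separate draws of reads from 1 library would give 31.7%. Over all genes, chi-square divided by its degrees of freedom was 4.46 and 4.64 between same-numbered columns, against 5.50 to 10.6 between columns of different number. The values of 4.46 and 4.64 come nearly all from 4 genes, which had an edgeR p under 0.05 unadjusted: without Rn7s1, Rn7s6, Gm19220 and Gm26461 the values were 0.000792 and 0.00385. Rn7s1, which encodes a small structured RNA, had 529306 and 588969 counts in the Fgf9_null columns, against 255292 and 291630 counts in the Fgf9_het columns. For nearly all other genes the difference between same-numbered columns was smaller than sampling noise, and each such pair was counted as 1 sample, called library 2 or library 3. Each label holds both libraries, and the genotype of either library is not resolved. Levels are given below in CPM (counts scaled to the column total) as mean ± SD over n = 2 libraries. The stomach regional genes Barx1 and Gata4 stood at 133 ± 4.73 and 114 ± 3.93 CPM. All 5 genes of that list reached 1 CPM in both libraries, Nkx2-5 with 1.39 CPM in library 2, against 1.86 CPM in library 3. Of 6 intestinal genes only Vil1 did, at 22.3 ± 0.547 CPM, while Cdh17 stood at 0.678 ± 0.208 CPM and Cdx1 had no counts.

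The first question was whether the simple keratins and Epcam differ between Fgf9_null and Fgf9_het stomachs. All 7 genes had nearly the same count under both labels. The 14 pairs of same-numbered columns, 1 pair for each gene and library, had equal counts in 4 cases (Krt20 and Krt23 in both libraries). In 9 of the other 10 pairs the Fgf9_null column was lower, by at most 7 counts, and no pair differed by more than 1 Poisson SD. Krt8 had 11129 and 13256 counts in the Fgf9_null columns, against 11135 and 13263 counts in the Fgf9_het columns. These counts equal 569.6 and 584 CPM in the Fgf9_null columns, against 578 and 591 CPM in the Fgf9_het columns. The column total is larger under the Fgf9_null label, and the same reads therefore give a slightly lower CPM there.

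edgeR's quasi-likelihood test, fitted to 19987 genes, called 0 of the 7 genes at an adjusted p under 0.05. Over all genes it called 0 (0% of those tested), with 4 genes at an unadjusted p under 0.05, none of them among the 7. DESeq2 called 3 genes (0.015%) and again 0 of the 7. A fit with a replicate block called 6 genes (0.03%) and 0 of the 7. Without edgeR's Poisson bound, which keeps p-values no smaller than sampling noise allows, that fit called 1232 genes (6.16%), with a median absolute log2 fold of 0.00569, and again 0 of the 7. The fold of Fgf9_null over Fgf9_het on the log2 scale was -0.000455 (SE 0.0362) for Krt8, -0.000877 (SE 0.0217) for Krt18 and -0.000618 (SE 0.115) for Epcam, each at an edgeR adjusted p of 1. The lowest fold among the 7 was that of Krt18 and the highest was 0.000316 (SE 0.130) for Krt20. The median absolute log2 fold over all genes tested was 0.000324. The lists around the keratins behaved alike. edgeR called 0 of 12 tested keratin linker and desmosome genes, 0 of 8 Epcam partner and membrane protease genes, 0 of 14 epithelial transcription factor genes and 0 of 10 tested squamous keratin genes in either direction. Their largest absolute log2 folds were 0.00173, 0.00222, 0.00144 and 0.00281. Because each label holds both libraries, none of these folds measures an effect of the Fgf9 genotype.

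**Figure D1:**
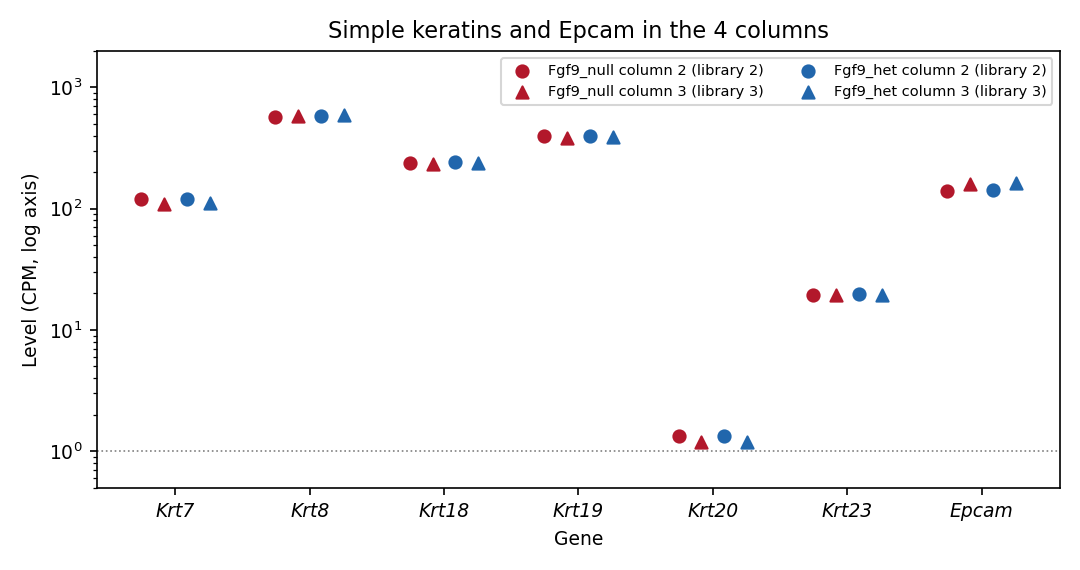
Level of each of the 7 genes (CPM, log axis) in the 2 Fgf9_null columns (red) and the 2 Fgf9_het columns (blue), with circles for number 2 and triangles for number 3; the dotted line marks 1 CPM. Points of the same shape lie at the same height under both labels, and Krt20 lies lowest, at 1.19 to 1.35 CPM.

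The second question was how the members are expressed in the embryonic stomach. Krt8 encodes the type II chain that pairs with KRT18 in simple epithelia (ENSMUSG00000049382, GRCm38 chromosome 15, 101996698 to 102004482, minus strand). It had the highest level of the 7, at 574 CPM in library 2, against 588 CPM in library 3, a mean of 581 ± 9.74 CPM. Krt18 (ENSMUSG00000023043, chromosome 15, 102028180 to 102032027, plus strand) encodes its type I partner. It had 241 CPM in library 2, against 235 CPM in library 3, a mean of 238 ± 4.39 CPM. Krt18 is a type I gene that lies beside the type II gene Krt8, with 23697 bases between them, and the genes run away from each other. The libraries lay on opposite sides for the pair, with Krt8 higher in library 3 and Krt18 higher in library 2, each by less than 3%: the ratio of library 2 to library 3 was 0.977 for Krt8 and 1.03 for Krt18.

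Krt19 encodes the smallest keratin, a type I chain that nearly lacks the tail domain and is common in ducts and gland epithelium (ENSMUSG00000020911, chromosome 11, 100140810 to 100148665, minus strand). It stood at 397 CPM in library 2, against 384 CPM in library 3. The mean of 391 ± 9.39 CPM was the second highest of the 7. Krt23, a type I gene known from stressed liver and colon cancer cells (ENSMUSG00000006777, chromosome 11, 99477974 to 99493137, minus strand), had 19.5 CPM in library 2, against 19.4 CPM in library 3. Krt20, the type I keratin gene of surface mucous cells and enterocytes in the adult gut (ENSMUSG00000035775, chromosome 11, 99428403 to 99438150, minus strand), lies 39823 bases from Krt23. It was close to the lower end of detection, with 26 counts in library 2 and 27 in library 3, or 1.34 and 1.20 CPM. Counting error alone gave 95% intervals (exact Poisson) of 17.0 to 38.1 counts for library 2 and 17.8 to 39.3 counts for library 3. Krt20 was nonetheless above the floor of 3 counts, which equals 0.132 to 0.156 CPM.

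Krt7, the second type II gene, is known from ducts, mesothelium and the junction of forestomach and glandular stomach (ENSMUSG00000023039, chromosome 15, 101411043 to 101430313, plus strand). It had 120.0 CPM in library 2, against 111 CPM in library 3, a mean of 115 ± 6.54 CPM. Epcam (ENSMUSG00000045394, chromosome 17, 87635979 to 87651129, plus strand) had 141 CPM in library 2, against 160 CPM in library 3, a mean of 151 ± 13.6 CPM. Epcam was the member with the widest spread between libraries relative to its level, an SD of 9.03% of the mean, followed by Krt20 at 8.01%. For Krt8, Krt18, Krt19 and Krt23 the SD was 0.271% to 2.40% of the mean.

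Levels were compared between genes after division by the merged exon length of each gene in kb. On this scale the order was Krt8 at 297 ± 4.98, Krt19 at 211 ± 5.06, Krt18 at 166 ± 3.05, Epcam at 68.7 ± 6.20, Krt7 at 16.4 ± 0.927, Krt23 at 12.4 ± 0.0337 and Krt20 at 0.658 ± 0.0527 CPM per kb. No neighbours in this order overlapped between libraries. Of 21779 protein-coding genes, only 79 stood above Krt8, 104 above Krt19 and 135 above Krt18 per kb, against 13496 above Krt20. By CPM without length scaling, 82 stood above Krt8, 182 above Krt19 and 447 above Krt18, against 14242 above Krt20. The places of Krt7 and Epcam rest on their gene models. The merged exons of the 5 annotated transcripts of Krt7 span 7049 bases. With the longest transcript, of 4094 bases, its level was 28.2 ± 1.60 CPM per kb and its place was the same. With a coding transcript of only 642 bases it would be 180 ± 10.2 CPM per kb, above Krt18. Epcam likewise has a coding transcript of only 600 bases, with which it would be 251 ± 22.7 CPM per kb, within the spread of Krt19 at 248 ± 5.96 CPM per kb on the same basis.

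Within the type II genes, Krt8 held 94.8 ± 0.364% of the summed CPM per kb, or 62.3 ± 1.73% with the shortest coding transcripts. Within the type I genes, Krt19 held 54.1 ± 0.161%, Krt18 held 42.6 ± 0.113%, Krt23 held 3.19 ± 0.0586% and Krt20 held 0.169 ± 0.00998%. With the longest transcripts, Krt19 held 58.1 ± 0.158% and Krt18 held 38.8 ± 0.113%. These shares were nearly the same in both libraries. The type II genes summed to 310.0 CPM per kb in library 2 and 316 CPM per kb in library 3. The type I genes summed to 395 CPM per kb in library 2 and 384 CPM per kb in library 3. The ratio of type II to type I was 0.804 ± 0.0273 with merged exon lengths and 0.761 ± 0.0242 with the longest transcripts. It was 1.07 without any length scaling and 1.12 ± 0.0116 with the shortest coding transcripts, so which type is the more abundant depends on the length used. The ratio of Krt8 to Krt18 per kb, genes with 1 annotated transcript each, was 1.75 in library 2 and 1.83 in library 3. Krt8 thus exceeded its partner Krt18 per kb in both libraries, while Krt18 and Krt19 together exceeded Krt8.

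**Figure D2:**
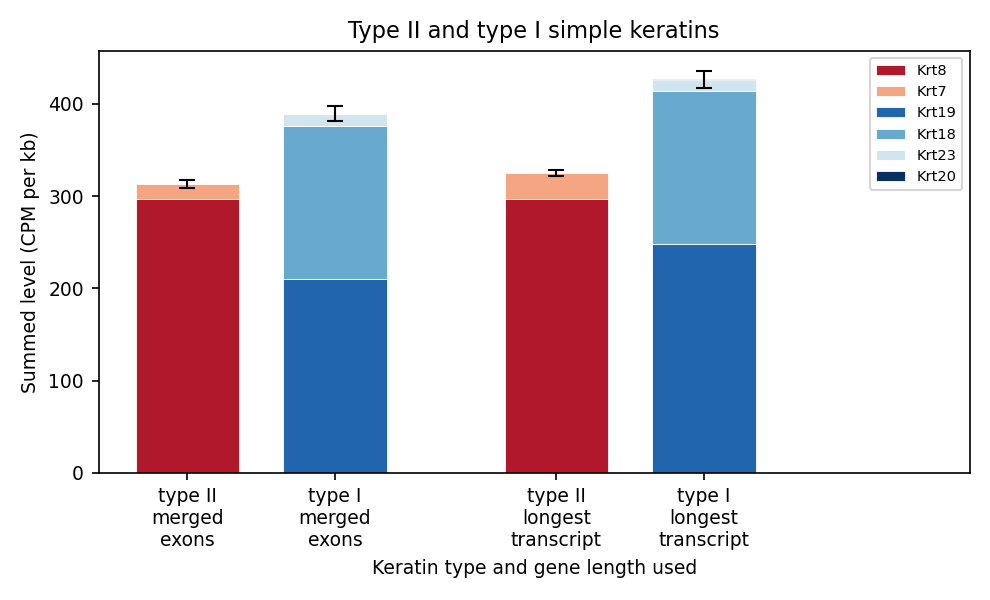
Stacked mean levels (CPM per kb, 2 libraries) of the type II genes (red shades) and type I genes (blue shades), with merged exons or the longest transcript as gene length; error bars are the SD of the sum over the 2 libraries. Krt8 makes up nearly all of the type II bars, Krt19 and Krt18 share the type I bars, and Krt20 is too low to be seen.

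Some member reads could be shared with copies of the gene. Krt8 shares 32.2% of its 31-base words with the processed pseudogene Krt8-ps, and Krt18 shares 9.31% with the predicted gene Gm5200. Both copies were listed at 0 in all 4 columns. Where reads from shared words were counted was not tested. Krt20 and Krt23 shared no such word with another gene, and Krt19 shared 0.439%, mostly with Krt17. On the opposite strand, Gm36026 overlaps the GENCODE start of Krt8 and Gm671 that of Krt7. Their levels were 0.303 and 0.531 CPM, or 0.0521% and 0.460% of the level of the keratin gene.

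The promoters of 4 members are shown because they span the range of levels, from Krt8, the highest, through its partner Krt18 and Epcam to Krt20, the lowest. Each is the RefSeq sequence of 250 bases before and 50 after the annotated start (build GRCm38.p6), 5′ to 3′ on the gene's strand: chr15:102004293-102004592 (minus) for Krt8, chr15:102027966-102028265 (plus) for Krt18, chr17:87635729-87636028 (plus) for Epcam and chr11:99438104-99438403 (minus) for Krt20. Capitals mark TATAAA and ATAAAA (which can overlap by 5 bases) and GGGCGG, on either strand.
Krt8: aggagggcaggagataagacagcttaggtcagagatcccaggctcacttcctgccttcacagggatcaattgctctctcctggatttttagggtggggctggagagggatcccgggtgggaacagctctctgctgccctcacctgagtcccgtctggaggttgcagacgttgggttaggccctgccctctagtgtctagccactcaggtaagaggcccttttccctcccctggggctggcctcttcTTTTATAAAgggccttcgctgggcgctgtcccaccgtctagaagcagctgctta
Krt18: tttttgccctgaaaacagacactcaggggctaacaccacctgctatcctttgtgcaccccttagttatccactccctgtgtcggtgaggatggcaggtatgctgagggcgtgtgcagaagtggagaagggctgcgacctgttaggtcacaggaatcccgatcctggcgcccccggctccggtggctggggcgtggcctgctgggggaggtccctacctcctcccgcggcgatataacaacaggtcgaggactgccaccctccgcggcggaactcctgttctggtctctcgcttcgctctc
Epcam: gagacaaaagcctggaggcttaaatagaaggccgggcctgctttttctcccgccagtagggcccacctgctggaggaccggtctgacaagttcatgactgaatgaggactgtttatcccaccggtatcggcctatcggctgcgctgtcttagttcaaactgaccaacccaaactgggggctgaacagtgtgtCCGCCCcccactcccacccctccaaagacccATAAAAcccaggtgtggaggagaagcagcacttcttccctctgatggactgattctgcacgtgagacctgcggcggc
Krt20: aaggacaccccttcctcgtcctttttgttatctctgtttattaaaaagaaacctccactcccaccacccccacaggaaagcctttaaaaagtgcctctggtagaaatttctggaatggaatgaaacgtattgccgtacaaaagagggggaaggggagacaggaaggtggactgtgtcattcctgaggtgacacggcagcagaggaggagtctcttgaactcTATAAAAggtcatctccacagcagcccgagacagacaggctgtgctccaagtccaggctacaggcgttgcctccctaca
TATAAA, the core of the TATA box, was found in the promoters of Krt8 and Krt20, 2 of the 6 members with an entry. Of all 32851 promoter entries of the same length, 13.6% held it. In Krt20 it begins 29 bases before the start. In Krt8 the match on the gene's strand begins 1 base before the start and that on the opposite strand 3 bases before. ATAAAA was found in 5 of the 6 (not Krt18) and in 18.5% of all entries. It begins 27 bases before the start in Epcam, 28 in Krt20 and 31 in Krt23. In Krt7 it begins 7 bases before the start, and in Krt8 it begins 4 bases before, on the opposite strand only. The RefSeq starts of Krt7 and Krt8 lie inside the gene spans given above, which are from GENCODE. The motif distances in these 2 genes therefore depend on the annotation used. GGGCGG, the GC box that SP and KLF factors can bind, was found in Krt7 with 4 matches and in Epcam with 1, and in 35.7% of all entries. CACCC was found in 5 of the 6 members and in 57.5% of entries, and TGANTCA, the AP-1 motif, in 0 of the 6 and in 7.81%. Krt20 and Krt8 both hold TATAAA, at different distances from the RefSeq start, and differ most in level. The motifs are matches of letters only. Krt19 has no entry and was not searched.

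The third comparison set library 2 against library 3, which stand for 1 sample each and give no test. Krt8, Krt18, Krt19 and Krt23 kept nearly the same level in both, while Krt7 was 1.08-fold higher in library 2. Krt20 rested on 26 and 27 counts, too few to show a like level. Of the 16712 genes that reached 1 CPM in both libraries, 3.88% were past 1.5-fold in either direction. Of the 7 members 0 were, a count close to that share for so few genes. Of the 7 members, 5 were higher in library 2, as were 54.2% of all genes. The median log2 ratio of library 2 over library 3 was 0.0376 for the members and 0.016 for all genes, and the median absolute ratio was 1.04-fold for the members and 1.08-fold for all genes. The number of epithelial cells and the RNA per cell cannot be told apart in these bulk samples.

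Epcam and Krt7 were the members whose ratio lay farthest from 1 given their counts. Epcam was lower in library 2, with a ratio of 0.880 and a 95% interval of 0.837 to 0.925. Krt7 was higher in library 2, with a ratio of 1.08 and an interval of 1.02 to 1.15. These intervals are exact binomial, cover counting error only and leave out the variation between embryos. For Krt8, Krt18 and Krt23 the interval on the log2 scale included 0: it ran from -0.0707 to 0.00226 for Krt8, from -0.0194 to 0.0945 for Krt18 and from -0.197 to 0.207 for Krt23. That of Krt19 ran from 0.0046 to 0.0935. With TMM library sizes in place of column totals, the log2 ratio of every member shifted by -0.019. That shift is larger than the distance from 0 to the nearer limit for Krt8 and for Krt19. Whether these 2 intervals include 0 therefore depends on the scaling. For Krt20 the interval ran from 0.628 to 1.99 as a ratio, so a difference of less than about that size was not detectable at this depth. Relative to Krt8 per kb, Epcam stood at 0.219 in library 2 and 0.243 in library 3 with merged exons, and at 0.802 and 0.890 with the shortest coding transcripts.

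**Figure D3:**
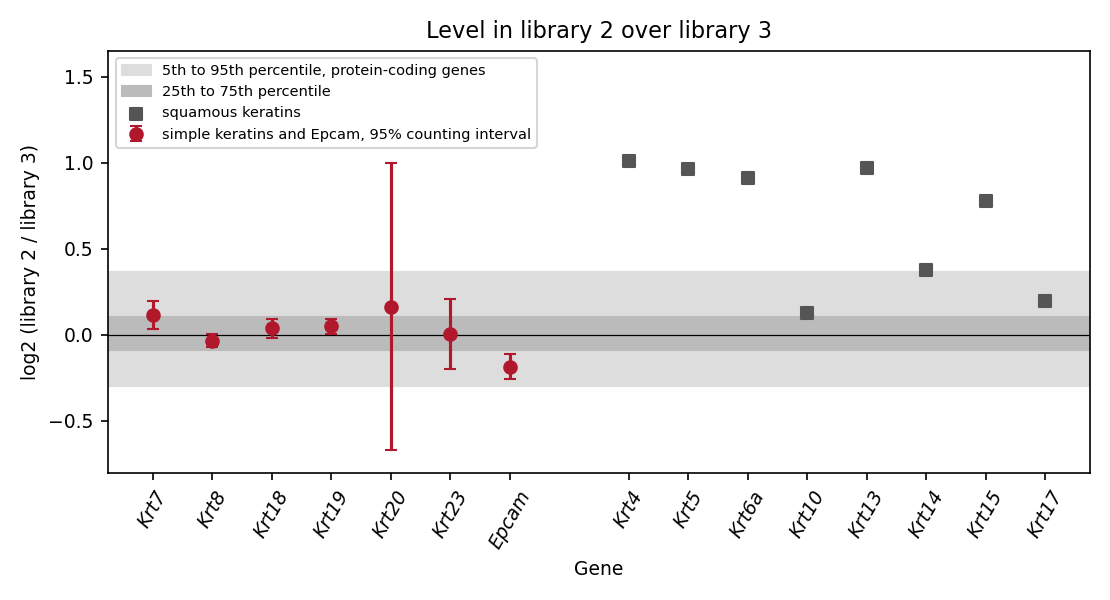
Log2 ratio of library 2 over library 3 for the 7 genes (red, with 95% counting intervals) and for the 8 squamous keratins at 1 CPM or more (grey squares); the dark band (-0.0882 to 0.105) is the interquartile range of 14332 protein-coding genes and the light band reaches from the 5th to the 95th percentile (-0.297 to 0.364). The red points lie between -0.18 and 0.16, while 6 of the 8 squares lie above the light band.

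The keratins of stratified epithelium differed between the libraries where the simple keratins did not pass the same fold. Of 12 squamous keratin genes, 8 reached 1 CPM in both libraries. All 8 were higher in library 2, 5 of them by over 1.5-fold, with a median log2 ratio of 0.846. Krt16 had no counts. Krt15, a basal keratin gene, had 247 CPM in library 2, against 144 CPM in library 3. Krt13, a suprabasal gene of the forestomach, had 145 CPM in library 2, against 74.2 CPM in library 3, and its type II partner Krt4 had 132 CPM in library 2, against 65.3 CPM in library 3. Krt5, the basal type II keratin gene, had 95.7 CPM in library 2, against 49.1 CPM in library 3. That squamous genes stand higher in library 2 was known when the list was chosen. Pkp1, a desmosome gene of stratified epithelium in the linker list, also stood higher in library 2, at 26.1 CPM against 14.1 CPM in library 3.

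The 6 simple keratins summed to 705 CPM per kb in library 2 and 699 CPM per kb in library 3, against 346 and 192 CPM per kb for the 12 squamous keratins. Simple keratins accordingly made up 66.9% of the summed keratin level per kb in library 2 and 78.2% in library 3. The ratio of squamous to simple keratins was 0.490 in library 2 and 0.274 in library 3. Whether the amount of forestomach in each sample accounts for this was not tested. Liver genes differed by a similar size in the opposite direction: all 4 that reached 1 CPM in both libraries were lower in library 2, 2 of them by over 1.5-fold, with a median log2 ratio of -0.879, and the 5 listed genes summed to 34.7 CPM in library 2, against 57.2 CPM in library 3. Afp, the alpha-fetoprotein gene, had 3.61 CPM in library 2, against 12.2 CPM in library 3, while the plasma protein genes Apoa1 and Ttr stood at 19.7 ± 2.65 and 9.72 ± 1.54 CPM. The part of this tissue in the keratin values was not tested. Glandular genes did not move with the squamous keratins as a group: 4 of 10 were higher in library 2, with a median log2 ratio of -0.0366 and a summed level of 5958 CPM in library 2, against 5617 CPM in library 3. The chymosin gene Cym (4882 CPM in library 2, against 4502 CPM in library 3) made up most of that sum, and Cldn18, a claudin gene of the stomach, had 377 ± 7.11 CPM. Atp4a, the proton pump subunit gene, differed the other way, with 23.2 CPM in library 2, against 35.5 CPM in library 3.

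**Figure D4:**
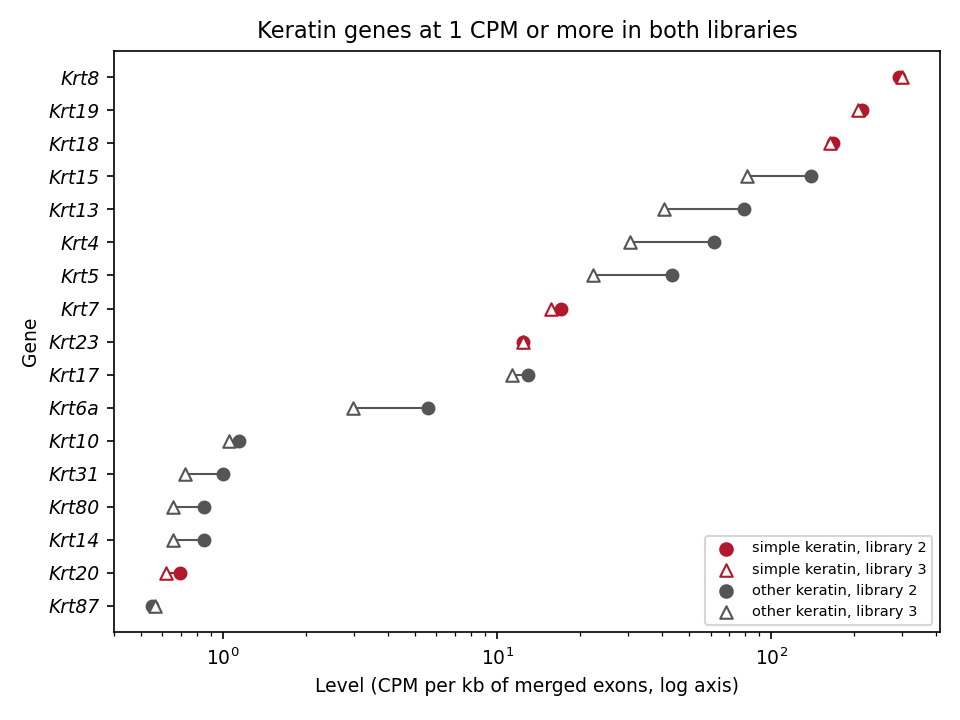
Level (CPM per kb of merged exons, log axis) of the 17 keratin genes that reached 1 CPM in each library, with filled circles for library 2, open triangles for library 3 and simple keratins in red. The red pairs of symbols nearly coincide, while Krt15, Krt13, Krt4, Krt5 and Krt6a lie to the right in library 2.

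Of 53 keratin genes with a row, 17 reached 1 CPM in both libraries and 12 had no counts in any column. The 17 were the 6 simple keratins and 11 others, of which 10 were higher in library 2. Per kb, Krt8, Krt19 and Krt18 held the top ranks, followed by the squamous genes Krt15 at 111 ± 41.2, Krt13 at 60.2 ± 27.6, Krt4 at 46.1 ± 22.0 and Krt5 at 33.0 ± 15.0 CPM per kb. Krt17, a gene of basal and appendage keratinocytes, stood at 12.1 ± 1.15 CPM per kb beside Krt23 at 12.4 ± 0.0337 CPM per kb, a difference within the spread between libraries. Krt6a reached 4.29 ± 1.86 CPM per kb. Krt10, Krt31, Krt80, Krt14 and Krt87 lay between 0.556 and 1.10 CPM per kb, in the range of Krt20. Krt14, the usual basal partner of KRT5, thus stood at 0.753 ± 0.138 CPM per kb, far below Krt15.

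The genes that anchor keratin filaments were expressed in the same libraries, and in which cells was not tested. Plec, which encodes the linker plectin, had 889.5 CPM in library 2, against 911 CPM in library 3. Dsp, which encodes desmoplakin, had 345 ± 20.9 CPM. All 12 genes of the linker list exceeded 1 CPM in both libraries, and 10 were higher in library 2, with a median log2 ratio of 0.111. Among the partners of Epcam, the E-cadherin gene Cdh1 had 389 ± 3.32 CPM and Spint2, a serine protease inhibitor gene, had 198 ± 12.6 CPM. Among epithelial transcription factors, Klf5 and Foxa1 stood at 253 ± 2.96 and 158 ± 0.147 CPM. Grhl3, a factor of stratified epithelium, had 15.8 CPM in library 2, against 11.1 CPM in library 3. The mesenchymal filament gene Vim had 414 ± 29.2 CPM. The nuclear lamina gene Lmnb1 had 223 ± 6.80 CPM, and Sync, which showed the widest library ratio of that list, had 6.33 CPM in library 2, against 5.17 CPM in library 3. Mesothelial genes were present as well, with Muc16 at 49.7 ± 4.58 and Msln at 43.4 ± 0.0381 CPM. All 6 mesothelial genes reached 1 CPM in both libraries and summed to 161 CPM in library 2, against 150 CPM in library 3, with Upk1b at 7.06 CPM in library 2, against 3.21 CPM in library 3. The part of mesothelium in the Krt7, Krt8, Krt18 and Krt19 levels was not tested.

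The protein-coding genes most like each member were sought by distance in log2(CPM + 1) over the 4 columns, which hold only 2 libraries, so likeness means a similar level and a similar library ratio. Cdh1 was nearest to Krt19, at a distance of 0.0337, and had 391 CPM in library 2, against 387 CPM in library 3. Cad was nearest to Epcam (distance 0.0477) and Chd3 to Krt8 (0.0407). Srsf6 was nearest to Krt18 (0.00986), Zfp638 to Krt7 (0.0115), Ssna1 to Krt23 (0.00884) and Tnfsf10 to Krt20 (0.022). The next in order were Fam120a for Krt19, Vdac1 for Epcam, Peg3 for Krt8, Anapc1 for Krt18, Atf7 for Krt7, Plekhj1 for Krt23 and Saa3 for Krt20.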

How the data were processed

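Per the labels' protocols, ribosomal RNA was removed with RNase H before random-primed, paired-end libraries were made from total RNA. Tools named in the submitters' processing notes, with no roles, are Salmon 1.8.0, Trimmomatic 0.33, FastQC 0.10 and edgeR; the build is GRCm38 (mm10). The strand setting is not given in the sources used here, nor is the annotation release. The authors deposited estimated counts for Ensembl genes without depth scaling. Columns were matched to samples by title and grouped by genotype. Beside these, 2 unnamed columns of values stand in the table and entered no computation. Whether each name stands over its own column is not settled.

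Counts were rounded and tested with edgeR 4.0.16 (R 4.3.3; TMM, filterByExpr, quasi-likelihood F test with its default Poisson bound, Benjamini-Hochberg over all genes, threshold 0.05), and with DESeq2 1.42.0 and limma 3.58.1 (voom) as alternatives, after checks on simulated data. Nothing says that the columns are separate animals, and p-values reflect only their spread. As a check of pairing, deviations from the group mean correlated at 0.999 between columns of 1 number, as each pair is 1 library. GENCODE M21 (GRCm38) gave positions and lengths for 50870 of 51098 genes. Promoters are from RefSeq. At these depths 1 count equals 0.0440 to 0.0519 CPM.

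The members, lists and tests were chosen with earlier results of these data known. Named genes were the 7 members, the keratins at 1 CPM or more in both libraries, and, for each other list, the 2 with the highest mean CPM and the 1 with the largest library ratio, besides the 2 genes most like each member. Genes named beyond these (Krt16, Krt8-ps, Gm5200, Gm36026, Gm671, Cdx1, Rn7s1, Rn7s6, Gm19220, Gm26461) were chosen after their values were seen. A gene that several lists hold was not counted again. A gene of the Epcam partner list that this rule names is not reported here.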

Additional observations from a re-analysis of the deposited data

How the results depend on the processing

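edgeR called 0 genes with RLE factors, with no filter, with a filter of 1 CPM in 2 columns and with limma-voom in its place; DESeq2 called 3. The replicate block, in which both columns of a block are 1 library, gave 6 called genes (0.03%) and 0 of the 7 members. With the block and no Poisson bound, a setting chosen after seeing the data, 1232 genes and 0 members were called, the members each at an adjusted p of 0.852. Leaving out 1 column gave 1 to 2 called genes, where the single column left is taken to vary as the other group does, and 0 members. The 77 log2 folds of members under other settings were never called; 16 changed sign, 2 of them with all 4 columns, for Krt8 at 3.32e-05 with RLE factors and 3.33e-05 with DESeq2. Without 1 column, the folds ran from -0.0493 to 0.0472 for Krt7, -0.0282 to 0.0271 for Krt8, -0.00988 to 0.00785 for Krt18, -0.0151 to 0.0135 for Krt19, -0.0719 to 0.0723 for Krt20, -0.00735 to 0.00781 for Krt23 and -0.107 to 0.106 for Epcam, since the libraries are then unequally represented.

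The ratio of type II to type I keratins was 0.761 with the longest transcript, 1.07 with no length scaling and 1.12 with the shortest coding transcript, the last a setting chosen after seeing the data wherever it is used, as were all settings for the squamous to simple ratio (0.371 to 0.382). Levels from 1 label's columns were 0.993 to 1.01 times the reported ones. With structured RNAs left out of the library size they were 1.20 to 1.21 times. The count of 0 members past 1.5-fold between libraries held under both, and with TMM library sizes. Krt20 is limited by depth, and every comparison by the 2 libraries.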
